A study of Mus musculus with 12 samples.

Results

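Pou5f1, Sox2, Nanog and Sall4, 4 genes that encode core transcription factors of pluripotency, were examined for how much of their RNA was newly made in mouse embryonic stem cells (mESCs). The members were the exonic and intronic rows of every transcript that the annotation (GENCODE M1) assigns to these gene names. This gave 17 of the 121429 transcripts with exonic rows and 4 of 34079 genes, with 6 transcripts for Pou5f1, 1 for Sox2, 3 for Nanog and 7 for Sall4. All but the Sox2 transcript, which has a single exon, also had an intronic row, 16 in all. The mESCs, of the male line DTCM23/49, grew on gelatin in medium with serum and the cytokine LIF. To tell new from old RNA, 200 µM 4-thiouridine (4sU), a uridine analog taken up into RNA as it is made, was given for 15, 30 or 60 min, and labeled RNA was biotinylated and pulled down with streptavidin. The 12 libraries comprise 6 of labeled and 6 of total RNA, 1 of each per labeling time and biological replicate. All were exposed to 4sU, so no library came from untreated cells. The 2 biological replicates were 2 parts of 1 culture of the line, passaged separately. The p-values measure the spread between libraries of this single line. The 6 libraries of each fraction came from these 2 parts at different labeling times, so they are not 6 biological replicates.

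Oct4, the product of Pou5f1, and Sox2 bind DNA side by side and together switch on a large share of the genes that keep these cells pluripotent, their own genes among them. Nanog is a homeodomain factor that holds the network in its self-renewing state, and Sall4 is a zinc finger factor that binds Oct4 and Nanog and helps maintain Pou5f1 expression. RNA that is replaced quickly is more common in labeled than in total RNA, whereas long-lived RNA is less common there, and introns mark RNA that has not yet been spliced.

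On mm9, Pou5f1 (ENSMUSG00000024406) lies on chromosome 17 from 35642982 to 35647721, plus strand. Sox2 (ENSMUSG00000074637) lies on chromosome 3 from 34548927 to 34551383, plus strand, inside the same-strand lincRNA Sox2ot, with which it shares 0 exonic bases. Nanog (ENSMUSG00000012396) lies on chromosome 6 from 122657507 to 122664651, plus strand. Sall4 (ENSMUSG00000027547) lies on chromosome 2 from 168573832 to 168593443, minus strand, and shares 526 exonic bases with the lincRNA Gm14261 of the opposite strand. Copies of these mRNAs elsewhere in the genome could have taken or given reads. A copy of 1325 aligned bases with 97.4% identity to Nanog-001 lies on chromosome X from 87127651 to 87128972, a stretch of 385 bases identical to Pou5f1-001 lies on chromosome 1 from 161223936 to 161224320, and 467 bases with 90.2% identity to Sall4-001 lie on chromosome X from 74070345 to 74070810. No other match of at least 300 bases and 90% identity was found, and Sox2-001 had none.

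A sequence match to the joint motif of Oct4 and Sox2 lies before Nanog, and binding was not measured here. Promoter windows of 300 bases (250 before to 50 after the start site) came from RefSeq on GRCm38.p6, with 2 starts each for Nanog and Pou5f1 and 1 for Sox2. No window was available for Sall4. The OCT-SOX composite motif of 14 bases, searched on both strands, was found in 2 of 32851 windows (0.0061%), and these were the 2 overlapping windows of Nanog. It is printed in capitals, at chr6:122707406-122707435 on the plus strand:
Nanog: cagcttctTTTGCATTACAATGtccatggt
The first base of the motif lies at -75 from one start and at -151 from the other. The octamer ATGCAAAT alone was found in none of the 5 windows and in 1.74% of all windows. The SOX motif CATTGT, which overlaps the composite, was found in both Nanog windows, in 1 of the 2 Pou5f1 windows and in 12.6% of all windows. The KLF motif CCNCNCCC was found in 4 of the 5 windows and in 49.5% of all windows, which makes it a common match.

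Sequence features of the mRNAs that bear on labeling and on decay differed among the 4 genes. They were chosen after the values had been seen. Uridines, the bases that 4sU replaces, made up 19.97% of Pou5f1-001 (269 uridines), 21.5% of Sox2-001 (528), 23.1% of Sall4-001 (1173) and 28.9% of Nanog-001 (639), with a median of 24.2% over 20631 coding transcripts. The pentamer ATTTA, found in elements of 3′ UTRs that are known to speed decay, was present in 65.2% of 16149 transcripts with a 3′ UTR of at least 100 bases, with a median of 1.29 matches per kb. Sox2-001 held 4 matches (3.68 per kb) and Nanog-001 held 3 (2.78 per kb). Sall4-001 held 1 (0.589 per kb) and Pou5f1-001 held none. The 3′ UTR of Pou5f1-001 is only 225 bases long, so the lack of a match there says little. Those of Nanog-001, Sox2-001 and Sall4-001 have 1078, 1086 and 1697 bases. The Sox2 and Nanog windows, the richest in the pentamer, are shown from GENCODE M1 with the pentamer in capitals:
Sox2 at 394 of the 3′ UTR: taccagtaatATTTAgagctagact
Sox2 at 459: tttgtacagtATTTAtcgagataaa
Sox2 at 567: tgcagcttaaATTTAggaccgttac
Sox2 at 773: atcgttggtaATTTAtaatagcttt
Nanog at 83: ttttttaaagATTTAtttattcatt
Nanog at 530: tctgagctctATTTAcaacttggtg
A second Nanog match at 87 overlaps the one at 83, as the repeated pentamer in that window shows. The part of uridine content and of this pentamer in the values below was not tested.

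The values are abundances that appear to be per length, and each library was scaled to nearly the same total, from 19988830 to 19992902. A value is therefore a share of its library and not an amount per cell, and the sequencing depth is unknown from it. In such bulk RNA, fewer cells of a type and less RNA per cell cannot be told apart. The lowest value listed was 1.01, so values of about 1 or less are missing and were taken as 0. All 10 mESC markers were detected, whereas Sox17 and Foxa2 of endoderm, Cdx2 of trophectoderm, Mesp1 of mesoderm, Neurog2 of neuroectoderm and Col3a1, Lum and Dcn of fibroblasts were at 0 in all 6 total RNA libraries. Other members of these lists were present in every total library. Among them were Dab2 (mean 41.4) and Gata4 (11.6) of endoderm, Eomes (11.6) of trophectoderm and Thy1 (38.6) of fibroblasts. In total RNA, summed levels of these other lists ran from 23.8 to 72.3 for endoderm, 13.4 to 20.1 for trophectoderm, 2.35 to 16.2 for mesoderm and 29.8 to 55.8 for fibroblasts. The neuroectoderm list ran from 179.6 to 409.4, most of it Tubb3, with 163.2 to 376.3 in labeled RNA. Within it Pax6 ran from 16.1 to 140.2 in total RNA (mean 48.3).

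Labeled libraries were less alike than total ones. Introns made up 6.53% to 7.41% of the signal of total libraries. They made up 14.8% and 13.9% in the labeled libraries of replicate 1 at 15 and 60 min, 9.35% and 10.8% in those of 30 min, and 7.24% and 6.99% in those of replicate 2 at 15 and 60 min. The last 2 thus lay within the range of total RNA. Exonic and intronic differences and intronic shares that change with either pair are given with and without it.

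In total RNA, Nanog had the highest level of the 4 genes, followed by Sall4, Pou5f1 and Sox2. Exonic values summed over the transcripts of a gene averaged 5712 ± 1939 for Nanog, 2611 ± 254 for Sall4, 1645 ± 121 for Pou5f1 and 342 ± 44.0 for Sox2 (SD, n = 6). These were at the 96.9th, 92.8th, 89.5th and 66.1st percentile of 13977 genes with a mean of at least 20. Each of the 6 pairs of genes differed in the same direction in all 6 libraries, with p = 0.0312 in exact sign-flip permutation tests (two-sided), the smallest that 6 libraries allow. The sums appear to count shared reads more than once, because long overlapping transcripts of a gene each carried a similar signal. The total RNA value times the exonic length in kb was 3084 for Sall4-001, 2607 for Sall4-002 and 2498 for Sall4-005, for example. With only the most abundant transcript of each gene, Pou5f1 was 1.03 times Sox2 (p = 0.656, exact), and with the mean over transcripts 0.804 times (p = 0.0625, exact). Sox2 was 0.131 times Sall4 by sums but 0.915 times by the mean over transcripts (p = 0.0938, exact). The place of Nanog at the top, and of Sall4 above Pou5f1, held in all 3 measures.

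Nanog was also the least even of the 4 genes. Its exonic level in total RNA was 5181 and 8631 at 15 min, 3712 and 5369 at 30 min, and 7404 and 3973 at 60 min (replicates 1 and 2), a coefficient of variation of 34.0%, against 7.34% for Pou5f1, 9.72% for Sall4 and 12.9% for Sox2. The 2 highest libraries were of different times and replicates, and they were also the 2 highest in Nanog intronic signal, at 328 and 385 against 201 to 258 in the other 4.

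**Figure D1:**
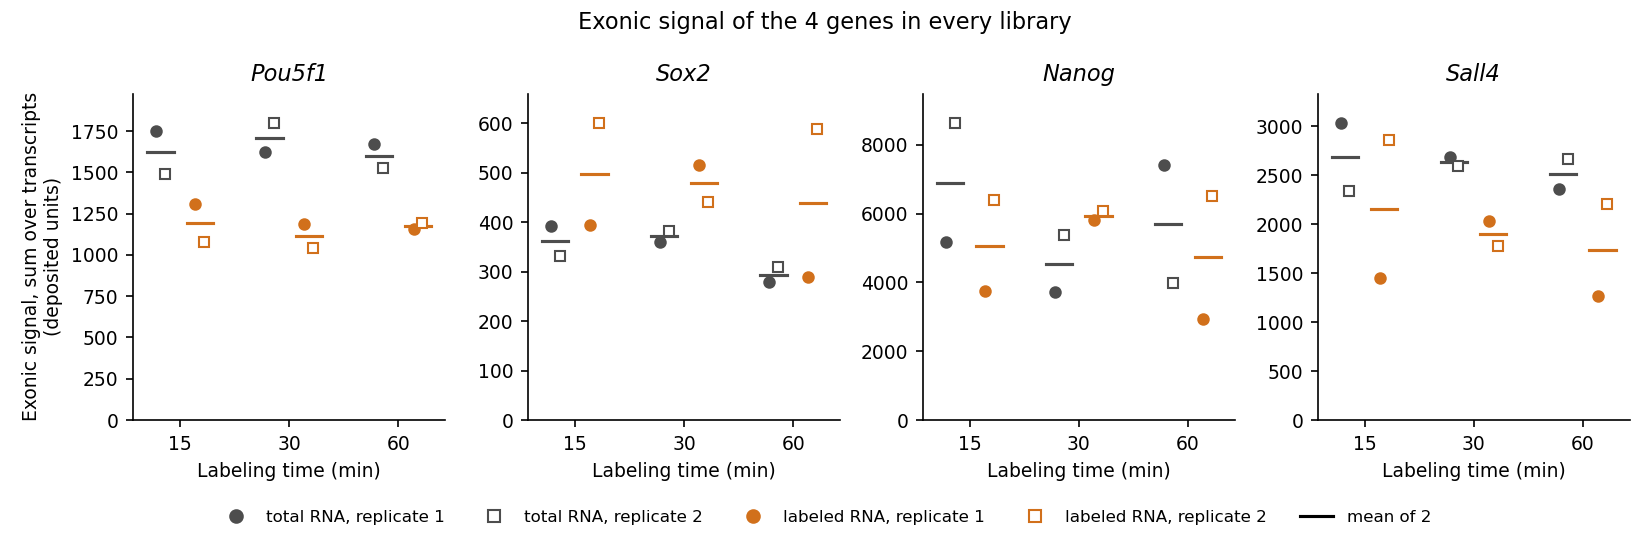
Exonic signal of Pou5f1, Sox2, Nanog and Sall4 (sum over transcripts, deposited units, y axis from 0, own scale per gene) by labeling time in min, with filled circles for replicate 1, open squares for replicate 2, grey for total and orange for labeled RNA, and horizontal lines for the mean of 2. Labeled Pou5f1 values lie below all total values, and the ranges of labeled and total Nanog overlap.

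Pou5f1 was less common in labeled than in total RNA. Its exonic signal was 1753, 1493, 1621, 1798, 1674 and 1529 in the total libraries, in order of time and replicate, and 1307, 1076, 1188, 1045, 1158 and 1193 in the labeled ones. The groups did not overlap, which held for 7.28% of the 13977 genes in this direction. The labeled level was 0.706 times the total one (95% interval 0.612 to 0.815), a log2 difference of -0.50 (SE 0.0946, adjusted p = 0.00558 in limma, fitted to log2(value + 1) with a term for labeling time). Pou5f1 was the only one of the 4 genes that passed, where 16.8% of all genes did, 11.6% as lower and 5.28% as higher. Its difference was at the 12.005th percentile of all genes, whose median was -0.05.

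Sall4 had a difference of similar size with more spread. It ranged from 2334 to 3031 (median 2627) in total RNA and from 1266 to 2862 (median 1904) in labeled RNA, and the labeled value was lower in 5 of 6 pairs of the same time and replicate. The exception was replicate 2 at 15 min, with 2862 against 2334. The log2 difference of -0.48 (SE 0.178) gave an adjusted p of 0.0837 in limma. It was -0.73 (adjusted p = 0.00438) without the labeled libraries of replicate 2 at 15 and 60 min, and -0.23 (adjusted p = 0.245) without those of replicate 1. Leaving out the labeled library of replicate 2 at 15 min alone gave -0.62 (adjusted p = 0.0181).

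Sox2 pointed the other way. Its levels were 393, 332, 360, 382, 279 and 309 in total RNA and 395, 599.7, 516, 441, 289 and 589 in labeled RNA, higher in all 6 pairs, which 6.43% of genes were. The groups overlapped, as they did not for 2.72% of genes with higher labeled values. The log2 difference was 0.43 (SE 0.170, fold 1.34, 95% interval 1.04 to 1.74, limma adjusted p = 0.104). Without the labeled libraries of replicate 1 at 15 and 60 min it was 0.65 (adjusted p = 0.0157), and without those of replicate 2 it was 0.19 (adjusted p = 0.238). Leaving out the labeled library of replicate 1 at 60 min alone gave 0.55 (adjusted p = 0.0274).

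For Nanog no difference was detectable. It ran from 2941 to 6522 (median 5942) in labeled RNA against 3712 to 8631 (median 5275) in total RNA, higher in 3 of 6 pairs, with a log2 difference of -0.12 (SE 0.261, limma adjusted p = 0.795). The interval of the fold, 0.622 to 1.37, includes the folds of Pou5f1 and Sox2. Without the labeled libraries of replicate 1 at 15 and 60 min the difference was 0.23 (adjusted p = 0.497).

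With replicate number and time as a block of 6 pairs, 1270 genes passed in place of 2353, Pou5f1 among them (adjusted p = 0.0264), and the other 3 did not (adjusted p = 0.122 to 0.806). With replicate 1 or replicate 2 left out entirely, 0 or 5 genes passed in limma (1356 and 2099 at an unadjusted p under 0.05) and Pou5f1 was not among them (adjusted p = 0.499 and 0.288), at log2 differences of -0.54 and -0.47.

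**Figure D2:**
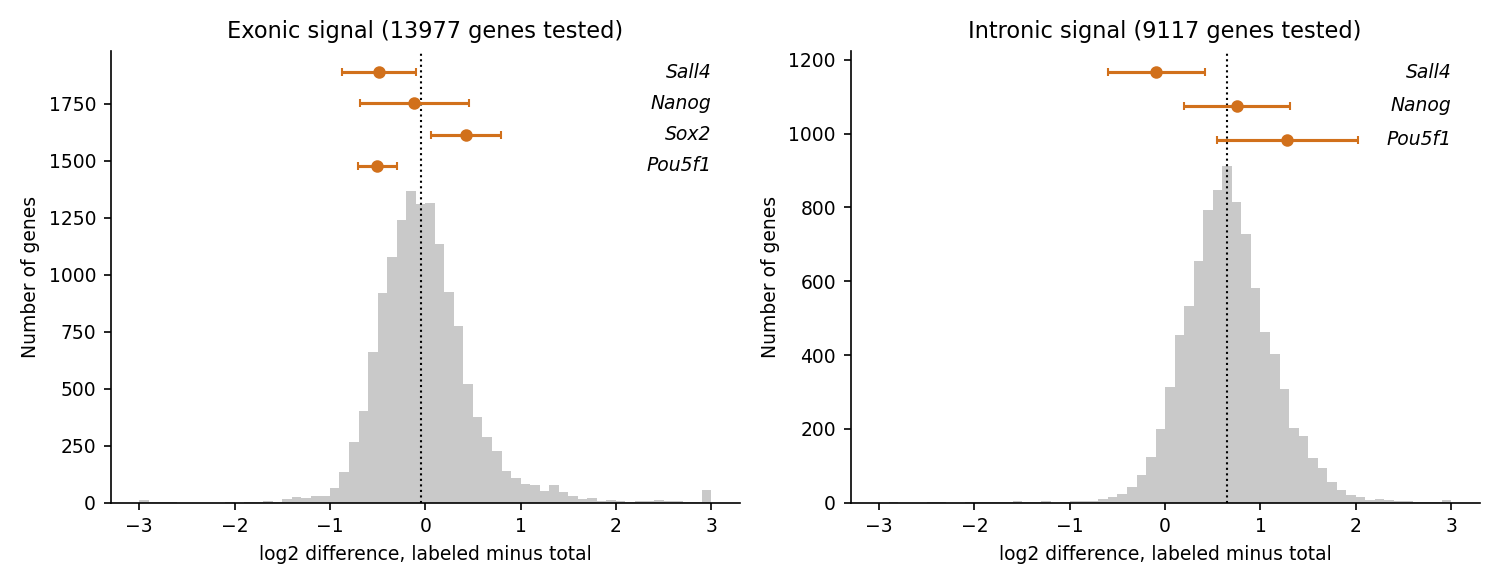
Histograms of the log2 difference between labeled and total RNA over all genes tested (x axis, log2 units; y axis, number of genes; the end bins hold values beyond 3), for exonic signal (left) and intronic signal (right). Orange points above are the member genes with 95% intervals and the dotted line is the median gene; exonic Pou5f1 and Sall4 lie left of it and Sox2 right, and intronic Pou5f1 lies right of the median of 0.65.

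Ratios between the 4 genes within a library do not depend on how that library was scaled, and were added after the values had been seen. The ratio of Sox2 to Sall4 was 0.116 to 0.148 (median 0.132) in total RNA and 0.210 to 0.272 (median 0.251) in labeled RNA, without overlap, a log2 difference of 0.91 (p = 0.0093, exact permutation within labeling time, two-sided, the smallest that 216 divisions allow). This ratio was as tight in labeled RNA (SD 0.14 in log2) as in total RNA (0.14), although both of its genes varied by over 25% there.

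Pou5f1 against Sox2 also separated the groups. It was 4.46 to 6.01 (median 4.604) in total RNA and 1.79 to 4.00 (median 2.34) in labeled RNA, a log2 difference of -0.93 (exact permutation p = 0.0093, again the smallest possible). Pou5f1 against Sall4 was 0.631 in total and 0.622 in labeled RNA as geometric means (log2 difference -0.02, exact permutation p = 0.944). The 3 ratios with Nanog overlapped between the groups, with log2 differences of 0.54 for Sox2 over Nanog (exact permutation p = 0.0648), -0.39 for Pou5f1 over Nanog (exact p = 0.259) and 0.37 for Nanog over Sall4 (exact p = 0.25). All 6 pairs were tested and these p are unadjusted.

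The spread of the ratios differed between pairs of the 4 genes, and ratios of other genes were not compared. Among labeled libraries, ratios among Sox2, Nanog and Sall4 had SDs of 0.14 to 0.23 in log2, and ratios of Pou5f1 to each of them 0.44 to 0.54. In total RNA the ratios with Nanog were the loose ones, with SDs of 0.50 to 0.58 against 0.13 to 0.16 for the others. The labeled coefficient of variation was 8.06% for Pou5f1 and 25.5%, 28.9% and 29.7% for Sox2, Nanog and Sall4. The labeled libraries of replicate 1 at 15 and 60 min, those with the highest intronic share, were the lowest 2 for Sox2, Nanog and Sall4. For Pou5f1 replicate 1 at 15 min was the highest. The part of the intronic share in these values was not tested.

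**Figure D3:**
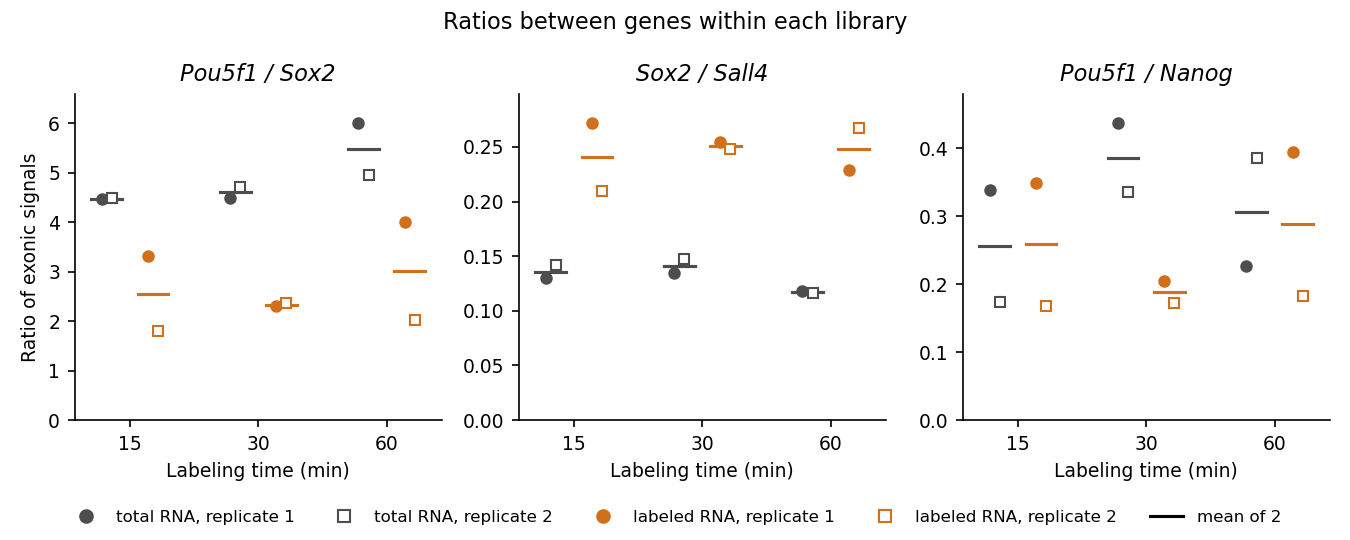
Ratios of exonic signals of 2 genes within each library (y axis, from 0, own scale per panel) by labeling time in min, with symbols as in the plot of exonic values. Pou5f1 over Sox2 is lower and Sox2 over Sall4 is higher in every labeled library than in any total library, and Pou5f1 over Nanog overlaps.

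Unspliced RNA of Pou5f1 and Nanog was more common in labeled RNA, as was that of most genes. Over 9117 genes with intronic signal, the median log2 difference was 0.65, and 32.6% passed, 32.3% as higher and 0.329% as lower. Labeled and total values did not overlap for 17% of genes with higher and 0.208% with lower labeled values, none of them Pou5f1, Nanog or Sall4. Differences are therefore also given relative to that shift, from a fit with each library centred on its median, where the split of calls was 756 higher and 956 lower in place of 2946 and 30.

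Intronic signal of Pou5f1 was 45.5, 44.1, 55.7, 55.8, 100.4 and 50.4 in total RNA and 242, 69.7, 170, 210, 156 and 73.2 in labeled RNA. It was higher in all 6 pairs, as for 32.5% of genes, but the total library of replicate 1 at 60 min exceeded 2 labeled ones. The log2 difference was 1.28 (SE 0.346, fold 2.43, 95% interval 1.46 to 4.05, limma adjusted p = 0.0129), at the 90.9th percentile. Centred on the median it was 0.58 (adjusted p = 0.0725). It was 0.94 (adjusted p = 0.0165) without the labeled libraries of replicate 1 at 15 and 60 min and 1.76 (adjusted p = 0.000116) without those of replicate 2.

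Nanog introns ran from 201 to 385 (median 249.4) in total and from 299 to 703 (median 436) in labeled RNA, higher in 5 of 6 pairs. The log2 difference was 0.75 (SE 0.259, fold 1.69, 95% interval 1.15 to 2.47, limma adjusted p = 0.0373), at the 60.2nd percentile, and 0.05 (adjusted p = 0.860) when centred. The call was lost without the labeled libraries of replicate 1 at 15 and 60 min (0.55, adjusted p = 0.0579). It was also lost without any 1 of 9 single libraries, namely labeled replicate 1 at 15 and 60 min, both labeled libraries at 30 min, both total libraries at 15 and at 30 min and total replicate 2 at 60 min, at differences of 0.61 to 0.82.

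Sall4 introns did not differ as a sum, with 278 to 414 in total and 195 to 450 in labeled RNA (log2 difference -0.09, SE 0.239, limma adjusted p = 0.762). Centred on the median the difference was -0.80 (adjusted p = 0.0420). This sum, however, held intronic rows whose bases are exonic in other transcripts. The intron of Sall4-006 is 100% exonic elsewhere in the gene, carried the highest of the intronic rows of Sall4 (220 ± 48.1 in total, 151 ± 79.6 in labeled RNA, SD, n = 6) and had a log2 difference of -0.68 (limma adjusted p = 0.115). With rows of at most 5% such bases, an alternative added after the data were seen, Sall4 was at 53.5 ± 10.6 in total and 94.9 ± 47.1 in labeled RNA (SD, n = 6), higher in all 6 pairs. Its log2 difference was then 0.71 (SE 0.323, limma adjusted p = 0.114, with 24.3% of 7427 genes passing, 24.1% as higher and 0.283% as lower). It was 0.28 (limma adjusted p = 0.278) without the labeled libraries of replicate 1 at 15 and 60 min and 1.07 (adjusted p = 0.00244) without those of replicate 2. Nanog kept its rows and its difference of 0.75 (adjusted p = 0.0474). Of Pou5f1 only Pou5f1-006 remained, at 7.49 ± 5.12 in total and 24.1 ± 14.2 in labeled RNA (SD, n = 6), under the filter and not tested.

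The intronic share of a gene's own signal, which does not depend on scaling, rose for Pou5f1. It was 3.43 ± 1.12% in total and 11.4 ± 4.65% in labeled RNA (SD, n = 6), without overlap, a difference of 8.01 percentage points (p = 0.0022, exact permutation, two-sided, the smallest that 924 divisions allow). The difference was 6.85 points without the labeled libraries of replicate 1 at 15 and 60 min and 10.8 points without those of replicate 2 (exact p = 0.00476 for both). In the labeled libraries of replicate 2 at 15 and 60 min, whose whole-library share lay within the range of total RNA, Pou5f1 introns still made up 6.08% and 5.78%, against 2.53% to 5.66% in total RNA.

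For Nanog the share was 4.71 ± 0.645% in total and 9.17 ± 5.01% in labeled RNA (SD, n = 6, exact permutation p = 0.0152). Sign flips over the 6 pairs gave p = 0.03125, and the exact permutation p was 0.3 without replicate 1 and 0.1 without replicate 2. The labeled share of Nanog reached 15.8% and 15.2% in replicate 1 at 15 and 60 min and lay between 4.47% and 6.98% in the other 4 labeled libraries. Without those 2 libraries the difference was 1.27 points in place of 4.45 (exact permutation p = 0.0619), and without the labeled libraries of replicate 2 at the same times 6.47 points (exact p = 0.00476). The share of Sall4 was 12.1 ± 1.21% and 15.8 ± 5.10% (SD, n = 6), a difference of 3.74 points (exact permutation p = 0.123). It was 0.938 points (exact p = 0.543) without the labeled libraries of replicate 1 at 15 and 60 min and 6.22 points (exact p = 0.00476) without those of replicate 2.

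With rows of at most 5% exonic bases, the share of Sall4 was 2.01 ± 0.400% and 5.34 ± 3.59% (SD, n = 6, a difference of 3.33 points, exact permutation p = 0.0195). It was 10.97% and 8.39% in labeled replicate 1 at 15 and 60 min, but 1.83% and 2.45% in labeled replicate 2, within the 1.51% to 2.51% of total RNA. The difference was 1.15 points (exact permutation p = 0.0476) without that pair of replicate 1 and 4.92 points (exact p = 0.00476) without that of replicate 2. For Pou5f1 the same restriction gave 0.451 ± 0.298% and 2.02 ± 1.15% (SD, n = 6, exact permutation p = 0.0065), a difference of 1.57 points. These restricted shares set the kept intronic rows, for Pou5f1 that of Pou5f1-006 alone, against the exons of all transcripts. Their sizes therefore cannot be compared between genes. The groups of Pou5f1 then overlapped, since labeled replicate 2 had 0.894% and 0.773% at 15 and 60 min and total RNA reached 1.04%.

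**Figure D4:**
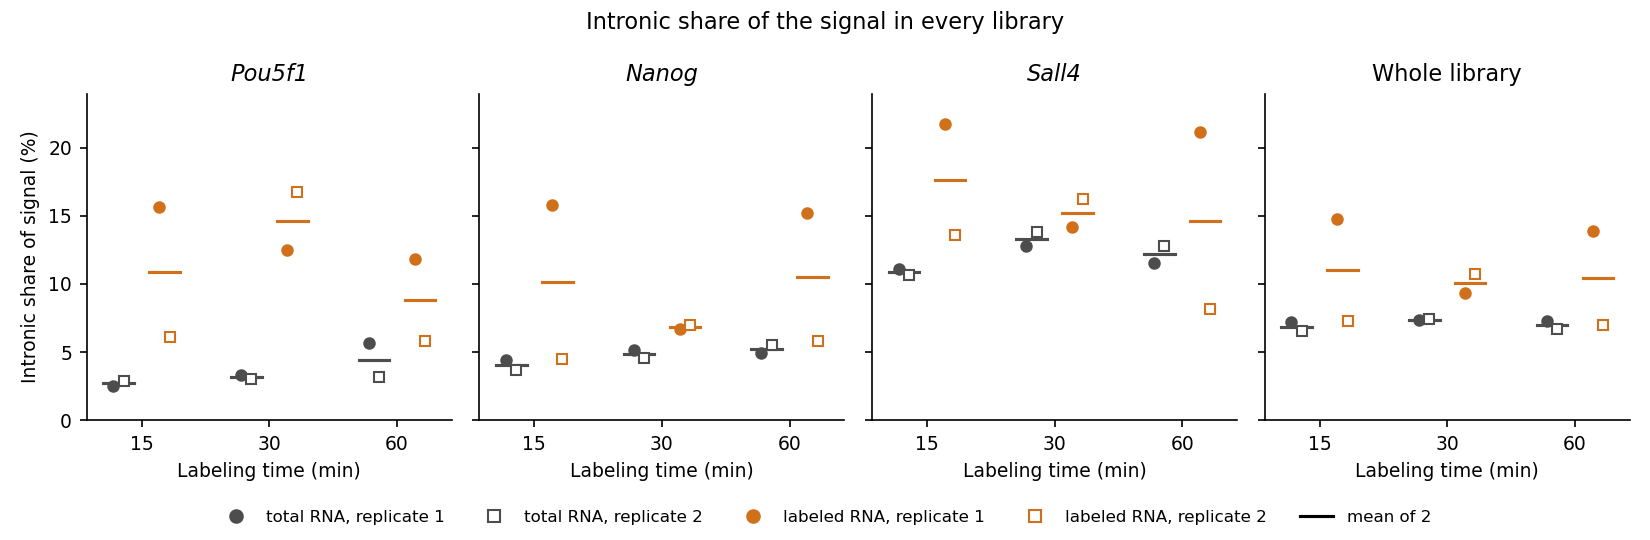
Intronic share of the signal in % (y axis) by labeling time in min for Pou5f1, Nanog and Sall4 (all intronic rows) and for the whole library, with symbols as in the plot of exonic values. Pou5f1 shares are higher in every labeled library than in any total library, whereas the high labeled values of Nanog are those of replicate 1 at 15 and 60 min, the 2 libraries that are also highest over the whole library.

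Single transcripts of a gene, which overlap and may share reads, behaved alike in their exons. Of the 6 Pou5f1 transcripts, 5 passed as lower in labeled RNA, at log2 differences of -0.58 to -0.41, where 17.3% of 45537 transcripts passed, 12% as lower and 5.28% as higher. The sixth was Pou5f1-001, the longest, at -0.45 (SE 0.148, limma adjusted p = 0.0565). All 7 Sall4 transcripts had negative differences, from -0.58 for Sall4-001 (adjusted p = 0.0510) to -0.22 for Sall4-004, and none passed. Neither did the 3 Nanog transcripts (-0.16 to -0.07) or Sox2-001. In introns, where 27.5% of 18384 transcripts passed, 27% as higher and 0.5% as lower, Pou5f1-001 (1.22, adjusted p = 0.00722) and all 3 Nanog transcripts (0.72 to 0.80, adjusted p = 0.0291 to 0.0429) passed and none of the 5 tested Sall4 transcripts did.

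**Figure D5:**
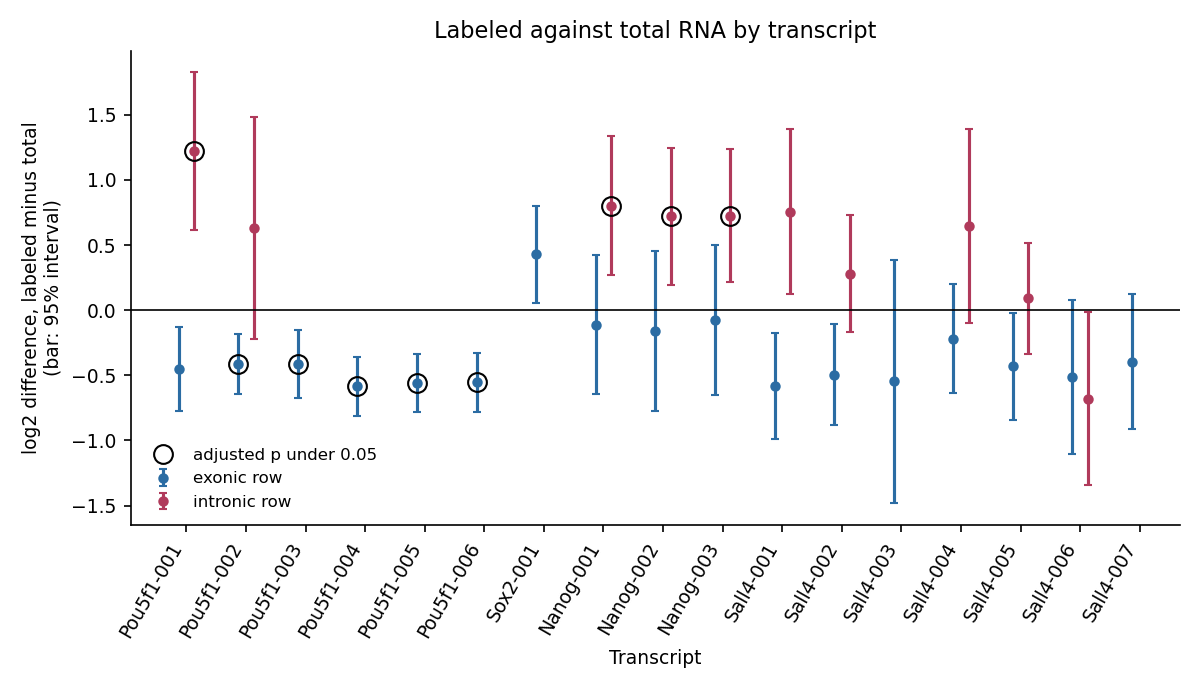
Log2 difference between labeled and total RNA (y axis) with 95% intervals for each transcript of Pou5f1, Sox2, Nanog and Sall4, blue for exonic and red for intronic rows, with a black ring where the adjusted p was under 0.05 and no symbol for intronic rows below the filter. Exonic values of Pou5f1 and Sall4 are all below 0, the Sox2 value is above it, and the lone intronic value below 0 is that of Sall4-006.

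No change with labeling time was detectable for any of the 4 genes. Between 60 and 15 min, the log2 difference in labeled exonic signal was -0.01 for Pou5f1 (SE 0.184), -0.24 for Sox2 (SE 0.328), -0.16 for Nanog (SE 0.453) and -0.29 for Sall4 (SE 0.340). In total RNA the same values were -0.02, -0.30, -0.30 and -0.08. The labeled-minus-total difference itself changed by 0.00, 0.06, 0.14 and -0.20 from 15 to 60 min. In each of these 3 comparisons limma passed 0 of 13977 genes, with 178, 108 and 162 genes at an unadjusted p under 0.05, and the adjusted p of all 4 genes was 1. At single labeling times the Pou5f1 difference was -0.45 at 15 min, -0.61 at 30 min and -0.44 at 60 min, and that of Sox2 was 0.43, 0.36 and 0.49. Sall4 was at -0.38, -0.47 and -0.59, whereas Nanog changed sign, with -0.45, 0.41 and -0.31. In introns the values were 1.52, 1.74 and 0.58 for Pou5f1, 0.70, 0.93 and 0.63 for Nanog, and 0.40, -0.25 and -0.43 for Sall4. None passed, with 0 genes passing over all at 15 and 60 min (1566 and 1660 at an unadjusted p under 0.05) and 4 at 30 min (0.0286%). In introns 2 genes passed at 30 min (0.0219%) and 0 at 15 and 60 min (1454 and 879 unadjusted), none of them a member.

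Rates in steady-state form place the 4 genes among all others, as a description without a test. Synthesis was labeled exonic signal per hour, processing was synthesis over total intronic signal, and degradation was synthesis over total exonic minus intronic signal, each averaged over the labeling times. Because labeled libraries were all scaled to 1 total, the rates drop as labeling time grows, and only their rank is read here. Synthesis was at the 96.7th percentile for Nanog, the 91.7th for Sall4, the 87.0th for Pou5f1 and the 73.9th for Sox2 (13776 genes).

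Degradation in this form stays close to the ratio of labeled to total exonic signal, so it is not a separate measure. Its size per hour depends on the scaling and is not a decay rate of the cells. Degradation ranked low for Pou5f1, at the 6.90th percentile of 10012 genes (1.71 per hour against a median of 2.76), and at 5.42 to 12.2 when each labeling time was taken alone. Sall4 was at the 20.1st percentile (2.06) and Nanog at the 28.1st (2.23), but Nanog moved between 9.65 at 15 min, 66.1 at 30 min and 22.8 at 60 min. Sox2, without introns, had no processing or degradation rate in this form. Its ratio of labeled to total exonic signal was 1.39 on average (85.5th percentile of 13663 genes), against 0.958 for Nanog, 0.739 for Sall4 and 0.707 for Pou5f1 (10.5th percentile). Processing was at the 90.6th percentile for Pou5f1, the 88.1st for Nanog and the 49.5th for Sall4 (10479 genes). These ranks rest on all intronic rows, which can hold bases exonic in other transcripts. The Pou5f1 rate was 54.0 per hour, and 472 with intronic rows of at most 5% exonic bases. The value of 472 sets synthesis over all transcripts against the intronic row of Pou5f1-006 alone. That transcript taken by itself gave 68.4. For Sall4 the rate was 13.6 per hour, and 91.3 with such rows, again with synthesis over all transcripts. Ranks with such rows were not computed.

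Other transcription factors of the network were read from lists chosen for this work, and genes named beyond the 3 highest and 3 lowest of a list were chosen after their values were seen. Of 21 such factors 20 were tested, 1 rose and 5 fell in labeled RNA, with a median log2 difference of -0.12 against -0.05 for all genes, of which 5.28% rose and 11.6% fell. Klf2, a Krüppel-like activator of the naive state, rose (0.76, limma adjusted p = 0.0376). The repressor Rest, which silences neuronal genes, fell to 0.488 times (-1.03, adjusted p = 0.000894), and Tcf7l1 (-0.69), the Wnt effector that limits Nanog, Utf1 (-0.68), Etv5 (-0.64) and Nacc1 (-0.39) fell as well. In introns, 3 of 15 rose, namely Klf4, Tbx3 and Otx2, and none fell, with a median of 0.71 against 0.65 for all genes, of which 32.3% rose.

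The NuRD complex is a chromatin remodeler with deacetylase activity that binds Oct4, Nanog and Sall4. Of its 11 subunits listed, 5 fell in labeled RNA (Mta1 at -0.96, Gatad2a, Rbbp4, Chd4 and Mta3) and none rose, with a median of -0.42, against 11.6% and 5.28% of all genes and their median of -0.05. In introns 2 of 11 rose (Mta1 and Mbd3), against 32.3% of all genes, with a median of 0.52. Of 8 textbook targets of Oct4 and Sox2, Fgf4, a growth factor gene with a known Oct4-Sox2 enhancer, rose in labeled RNA (0.67, limma adjusted p = 0.00628) and Utf1 fell (-0.68, adjusted p = 0.00479). Both were the extremes of that list, whose median was 0.19, and over all genes 5.28% rose and 11.6% fell. Introns rose for 4 of its 7 genes, against 32.3% of all genes, with a median of 1.42 against 0.65. Of 3 tested relatives from the POU, SOX and SALL families (Pou2f1, Sox15 and Sall1), none passed in exons, and Sox15 introns rose (1.87).

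Tcf19 and Cchcr1, the genes beside Pou5f1 on chromosome 17, both rose in labeled RNA in exons (1.17 and 0.63) and in introns (1.47 and 1.22), opposite to the exons of Pou5f1. Of 10 long-lived reference mRNAs 5 fell in labeled RNA (Actb at -1.02, Eef2, Pgk1, Gapdh and Eef1a1) and none rose, with a median of -0.32, against 11.6% and 5.28% of all genes. In introns 8 of 10 rose, against 32.3% of all genes. The exonic fall of Pou5f1, -0.50, lay between those of Eef2 (-0.55) and Pgk1 (-0.44).

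The profile of each gene over the 12 libraries was compared with 8748 genes with a mean of at least 100, by Pearson r of log2 values, as a description over libraries that may share RNA between labeled and total. Among the closest were Eif4g3 (0.94) and Tfdp1 (0.93) to Pou5f1, Mrpl36 (0.94), Gadd45a (0.90) and Gsg2 (0.90) to Sox2, Srfbp1 (0.92), Ube2s (0.91) and Hist1h2br (0.90) to Nanog, and Eif4a3 (0.95), Arhgdia (0.95) and Akap12 (0.94) to Sall4. None of the 4 genes was among the closest to another. Among themselves r ran from -0.55 for Pou5f1 and Sox2 to 0.54 for Pou5f1 and Sall4.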

How the data were processed

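Labeled and total RNA of mESCs was sequenced in 12 libraries. The authors discarded rRNA reads with STAR 2.5.0 and used STAR and RSEM to quantify transcripts on exon and intron sequences. The deposited unit is a signal scaled to one total per library, and how this scale was made is not given in the sources used here. Per the labels the build was mm10, whereas the methods name mm9. Transcripts were joined by identifier to GENCODE M1 (mm9), where 83847 of 121429 were found. Values were summed per gene, kept at a mean of at least 20, and tested on log2(value + 1), which understates changes of low genes. limma 3.58.1 (R 4.3.3) was used with a trended variance, and p-values were adjusted by Benjamini-Hochberg (threshold 0.05). Single values had exact permutation tests (Python 3.11.15, numpy 2.4.6). Copies were sought with blastn. On simulated data for the exonic comparison of 13977 genes, limma recovered 63 of 100 genes changed by 1 and 93 of 100 changed by 2 on the log2 scale, with 9 false calls. The simulated noise was independent for each gene and library, without shifts shared by the genes of a library. Changes as small as the exonic differences of the 4 genes were not simulated. By their titles, labeled and total libraries share labeling times and replicate numbers, which does not by itself mean the same culture. Their deviations correlated at -0.0695, 0.048 and -0.188 (15, 30 and 60 min). The members, the lists and the naming rule (the 4 genes and their transcripts, the 3 highest and 3 lowest of each list, the 3 closest profiles, of which 1 is not reported here) were chosen with earlier results of these data known.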

Additional observations from a re-analysis of the deposited data

Results flagged for a closer look

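Of 14 groups of 6 libraries tested with Dixon's criterion for a value far from the rest, 1 stood out, where chance gives 0.7. Intronic signal of Pou5f1 in total RNA was 100.37 in replicate 1 at 60 min, against 44.1 to 55.8 in the other 5 total libraries. Without that library the labeled-minus-total difference of Pou5f1 introns was 1.49 (limma adjusted p = 0.00944) in place of 1.28.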

How the results depend on the processing

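The sequencing depth is unknown from these values, and each group had 2 parts of 1 culture. Of 627 values recomputed under the alternatives, 444 were rated the same and 42 reversed. A further 106 counts or rates moved, 24 effects became weaker and 11 became stronger across the threshold. For effects and rates, the same meant an unchanged direction and side of the threshold, or a move of less than the spread. Counts rated the same could differ, as with 3108 exonic genes in place of 2353 when libraries were centred on the median. Part of the 444 could not change. For the changes with labeling time, leaving out a library of a group that was not compared leaves the estimate as it was. Under the replicate block of 6 pairs, 1270 genes and 4470 transcripts passed in exons in place of 2353 and 7888, and no call on Pou5f1, Sox2, Nanog or Sall4 changed.

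With a mean of at least 100, 5063 transcripts passed in exons and 834 genes in introns. In introns, 2976 of 9117 genes passed in the main fit. Genes that passed numbered 4659 of 20368 without a filter and 1808 of 7427 with rows of at most 5% exonic bases. Of the 9117 genes, 1712 passed centred on the median and 8141 without the labeled libraries of replicate 2 at 15 and 60 min. As single transcripts, 5061 of 18384 passed in introns. For the change from 15 to 60 min, a pseudocount of 20 gave 4 genes in place of 0 for labeled minus total and 4 in total RNA, where centring gave 3. Signs turned for exonic Nanog without the labeled libraries of replicate 1 at 15 and 60 min (0.23), for Pou5f1 from 15 to 60 min in labeled RNA when centred (0.11) and for Sall4 introns with rows of at most 5% exonic bases (0.71, and 0.28 or 1.07 without the labeled libraries of replicate 1 or 2 at 15 and 60 min as well). The intronic share of Sall4 differed by 3.33 points with those rows and by -1.61 points with the most abundant transcript. Without the labeled libraries of replicate 1 at 15 and 60 min, the share differed by 1.27 points for Nanog and, with rows of at most 5% exonic bases, by 1.15 for Sall4. Without those of replicate 2 it differed by 6.22 points for Sall4, and by 4.92 with those rows. The log2 ratio of Pou5f1 to Sox2 in total RNA was 0.041 with the most abundant transcript and -0.31 with the mean over transcripts, and that of Sox2 to Sall4 was -0.13 with the mean. The cause was not tested.

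Leaving out 1 library or replicate gave 0 to 2931 genes and 0 to 10439 transcripts in exons and 1094 to 5086 genes in introns. The exonic count of genes was 1466 and 1436 without labeled replicate 1 or 2 at 30 min, 1445 without total replicate 1 at 15 min, 1454 without total replicate 2 at 30 min, 0 without replicate 1 (1356 at an unadjusted p under 0.05) and 5 without replicate 2. The intronic count was 4945 and 5086 without labeled replicate 2 at 15 or 60 min, 1832 without labeled replicate 2 at 30 min, 1094 without replicate 1 and 4801 without replicate 2. For the changes from 15 to 60 min, 0 to 11 genes passed for labeled minus total, 0 to 7 in total and 0 to 8 in labeled RNA. The log2 values then ran, for labeled minus total, from -0.43 to 0.72 for Nanog, -0.14 to 0.14 for Pou5f1, -0.69 to 0.28 for Sall4 and -0.45 to 0.57 for Sox2. In labeled RNA they ran from -0.73 to 0.42, -0.15 to 0.13, -0.78 to 0.20 and -0.75 to 0.27 in that order, and in total RNA from -0.75 to 0.15 for Nanog, -0.13 to 0.10 for Pou5f1 and -0.27 to 0.10 for Sall4. The exonic difference of Nanog ran from -0.38 to 0.15 and the intronic one of Sall4 from -0.21 to 0.048. The intronic share differed by 6.52 to 9.50 points for Pou5f1, 1.16 to 7.75 for Nanog and 0.254 to 7.23 for Sall4. The degradation rate of Nanog ran from 2.25 to 2.40.

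Rates at 15, 30 and 60 min alone were, for degradation per hour, 3.02, 1.35 and 0.770 for Pou5f1, 3.06, 2.76 and 0.879 for Nanog, and 3.66 and 0.801 (15 and 60 min) for Sall4. Processing was 106, 40.0 and 15.6 for Pou5f1, and at 15 and 60 min 71.3 and 15.3 for Nanog and 26.4 and 4.96 for Sall4. Synthesis was 4765, 2233 and 1176 for Pou5f1, and at 15 and 60 min 20266 and 4731 for Nanog, 8629 and 1733 for Sall4, and 1989 and 439 for Sox2. These drop with time by the construction of the scale. With rows of at most 5% exonic bases, processing was 472 for Pou5f1 and 91.3 for Sall4, with synthesis still summed over all transcripts. By single transcript, degradation was 1.85, 1.95, 1.58 and 1.61 for Pou5f1-001, Pou5f1-002, Pou5f1-004 and Pou5f1-005 and 4.15 for Sall4-003. Processing was 24.6, 18.4, 170.7, 107, 146 and 68.4 for Pou5f1-001 to Pou5f1-006, 38.8 and 55.1 for Nanog-001 and Nanog-003, and 63.4, 32.3, 4.15, 39.0 and 1.22 for Sall4-001, Sall4-002, Sall4-003, Sall4-005 and Sall4-006. Synthesis was 416, 285, 612, 447, 569 and 395 for Pou5f1-001 to Pou5f1-006, 3352, 4542 and 4400 for Nanog-001 to Nanog-003, and 1028, 1242, 42.5, 237, 1825, 257 and 92.5 for Sall4-001 to Sall4-007.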
